A study of Mus musculus with 45 samples.

Results

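NIH-3T3 cells, an immortalised line of mouse embryonic fibroblasts, were labelled with 4-thiouridine (4sU), a uridine analogue that is built into RNA as it is made. The same dose and time were used in 2 experiments. The 6 arrays of total cellular RNA described here, of 45 in the series, were chosen by title. They are 3 arrays of an experiment whose titles begin with 2F and 3 arrays of an experiment without that prefix, called the first experiment here. In both, cells were exposed to 200 µM 4sU for 60 min, and both titles hold the word mock. The labels explain neither 2F nor mock. Per the labels, all cells were between passages 5 and 15, grew at 37 °C and 5% CO2 with 5% newborn calf serum, were plated at 40% density 24 h earlier and had reached 80% density at the start. Other groups are set beside them: newly transcribed (4sU-labelled) RNA of 2F (3 arrays) and of the first experiment (3 arrays), unlabelled pre-existing RNA of the first experiment (3 arrays), total RNA after 30 min at 500 µM 4sU (9 arrays) and total RNA of cells taken before any actinomycin D, called untreated here (3 arrays). No label states that replicates were separate cultures, so the p-values weigh differences against array-to-array spread, and that spread may be technical only. Whatever else differed between the experiments cannot be told apart from the prefix 2F.

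The cells carried the markers of their line in both experiments. All 11 fibroblast genes looked for, among them the collagen Col1a1 and the filament protein Vim, were measured, and none passed the test between experiments. Their summed level ran from 16.02 to 16.09 on the 2F arrays and from 15.75 to 16.05 on the first-experiment arrays (log2 of summed intensities). All 3 measured epithelial, 2 endothelial and 2 muscle markers, and 4 of 5 leukocyte markers, lay below an intensity of 32 on all 6 arrays. The exceptions were Cd14, a co-receptor for bacterial lipid that macrophages and some fibroblasts carry, at 5.88 to 5.96 on the 2F arrays and 5.65 to 6.41 on the first-experiment arrays, and Fabp4, a fatty acid carrier of adipocytes. Fabp4 had log2 levels of 5.87, 6.45 and 6.31 on the 2F arrays, against 4.88, 5.17 and 5.73 on the first-experiment arrays, a difference that did not pass (0.95 ± 0.27, limma adjusted p = 0.126). Its other probe set differed by 1.90 ± 0.32 (limma adjusted p = 0.064). In bulk RNA, fewer cells of a type and less RNA per cell cannot be told apart.

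Trib3 and Cth, the genes that mark the comparison, belong to the amino acid branch of the integrated stress response. When amino acids run short, uncharged transfer RNA activates the kinase Gcn2, which phosphorylates the initiation factor eIF2. General translation slows while the factor Atf4 is translated more, and Atf4 with partners of the C/EBP family switches on genes for amino acid synthesis, amino acid import and the charging of transfer RNA. Trib3 encodes a pseudokinase that Atf4 induces and that in turn dampens Atf4, and Cth encodes the enzyme that cleaves cystathionine to yield cysteine.

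The first-experiment arrays differed among themselves far more than the 2F arrays did. Over the 15568 probe sets tested, Pearson's correlation between arrays was 0.996 to 0.997 among the 2F arrays and 0.869 to 0.961 among the first-experiment arrays, and the median SD of a probe set was 0.0758 in 2F and 0.398 in the first experiment (log2, n = 3 each). First-experiment replicate 2 stood farthest from 2F, with 24.0% of probe sets at least 2-fold below the 2F mean and 11.4% at least 2-fold above. For replicate 3 these shares were 9.48% and 2.36%, and for replicate 1 they were 2.51% and 1.05%. The signal of the 3' minus the 5' control probe set of Actb, which grows as RNA is shortened or labelled less far, was 0.69, 0.74 and 0.68 on the 2F arrays, against 0.77, 3.08 and 1.29 on the first-experiment arrays (log2). The lowest first-experiment array lay just above the 2F arrays and replicate 2 far above all of them. The difference of -1.01 had an exact two-sided permutation p of 0.1, the smallest that 3 against 3 arrays allow. For Gapdh the signal was -0.29, -0.26 and -0.30 on the 2F arrays, against -0.23, 0.36 and -0.29 on the first-experiment arrays, and the groups overlapped (-0.23, exact two-sided permutation p = 0.3). Without first-experiment replicate 2, the difference was -0.33 for Actb and -0.02 for Gapdh. The same signals of the control genes Tfrc and Pcx did not single out replicate 2. Tfrc read 1.64, 1.82 and 1.75 on the 2F arrays, against 1.32, 2.54 and 2.98 on the first-experiment arrays. Pcx read 2.92, 3.03 and 3.16 on the 2F arrays, against 4.01, 3.08 and 2.94 on the first-experiment arrays (exact two-sided permutation p = 0.4 for Tfrc and 0.6 for Pcx). The poly-A control RNAs that are spiked in before labelling had median log2 signals over 12 probe sets of 6.04, 5.61 and 5.80 on the 2F arrays, against 7.52, 7.46 and 8.91 on the first-experiment arrays (exact two-sided permutation p = 0.1). The part of RNA quality and of labelling in the results that follow was not tested.

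**Figure D1:**
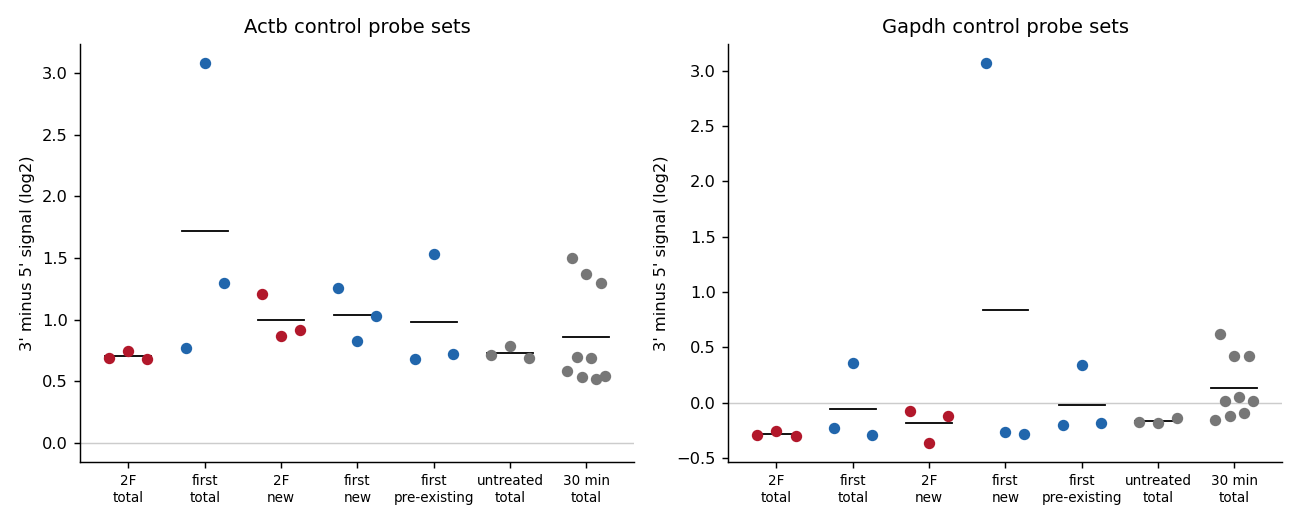
Signal of the 3' minus the 5' control probe set (log2, vertical axis) of Actb (left) and Gapdh (right) on each array, by group. Each point is 1 array and each line the group mean, and replicates run from left to right within a group, with 9 arrays at 30 min and 3 in each other group. First-experiment total RNA replicate 2 stands at 3.08 for Actb, above the 2F arrays at 0.68 to 0.74, and first-experiment new RNA replicate 1 stands at 3.07 for Gapdh.

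In total RNA, 86 probe sets were higher and 17 lower in 2F than in the first experiment, 0.552% and 0.109% of the 15568 tested. A probe set was called at a limma adjusted p (Benjamini-Hochberg) below 0.05 with a change of 2-fold or more. At least 1 probe set rose in 78 genes and fell in 10, and the lowest and highest adjusted p among them were 0.0209 and 0.0494. The other tested probe sets of these genes had changes above 0 in 90 of 139 cases for the genes with a rise, with a median of 0.23, and below 0 in 16 of 27 for those with a fall, with a median of -0.04. The 3 arrays of 2F did not overlap with the 3 of the first experiment for any call, which was also true of 25.3% of all tested probe sets with 2F higher and of 18.3% with 2F lower. Most increases were of dim probe sets: 20 of 86 had a mean log2 of 7 or more over the 6 arrays, and 36 of 86 averaged below an intensity of 32 in the first experiment.

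The counts rested on single arrays. Without first-experiment replicate 2, the same 86 and 17 probe sets were called among 484 higher and 83 lower (3.09% and 0.531%), and without first-experiment replicate 1 there were 1946 and 819. Without first-experiment replicate 3, or without 2F replicate 1, 2 or 3, limma called 0 in either direction, while 928 and 347, 663 and 271, 639 and 253, and 690 and 284 probe sets had an unadjusted p below 0.05 with a 2-fold change. It also called 0 with array weights, which gave first-experiment replicate 3 a weight of 1.10e-06 and each 2F array at least 56.5 and so in effect left replicate 3 out, and 1340 and 273 with all 24 total RNA arrays in 1 fit. Increases made up 83.5% of the calls on the deposited scale, 69.8% after quantile normalization and 69.2% after centring each array on its median. The median change of all tested probe sets was 0.08 on the deposited scale, and these scalings moved it by -0.12 and -0.21.

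**Figure D2:**
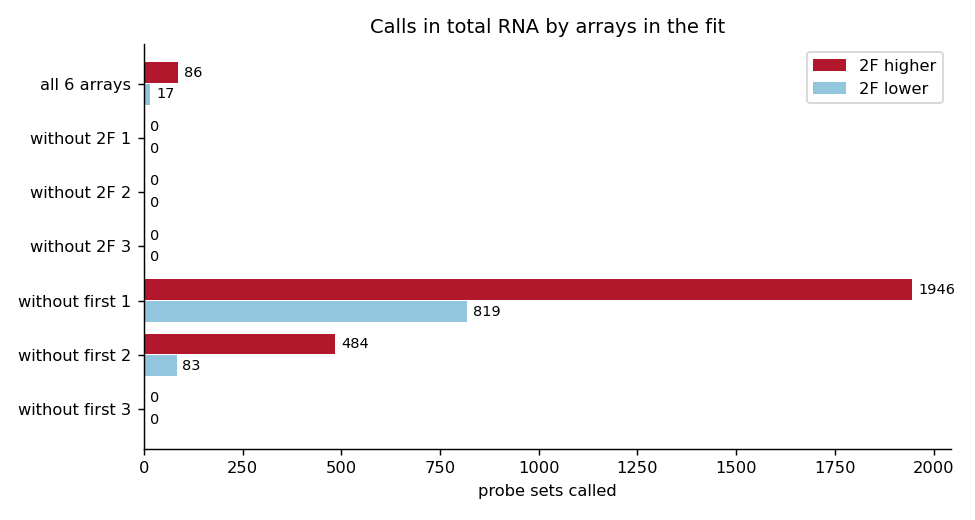
Number of probe sets called higher (dark red) and lower (light blue) in 2F total RNA (horizontal axis) with all 6 arrays and with each array left out in turn (vertical axis). Bars read 86 and 17 with all arrays, 1946 and 819 without first-experiment replicate 1, and 0 where replicate 3 or a 2F array is left out.

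Of the 45 amino acid stress genes with a tested probe set, 6 had at least 1 that rose in 2F: Trib3, Cth, Gpt2, Slc6a9, Vldlr and Slc1a4. That is 13.3% of these genes, against 0.937% of the 8325 genes with a tested probe set. The called probe sets of Slc6a9 and Vldlr averaged below an intensity of 32 in the first experiment and passed the filter through the 2F arrays. With such probe sets left out, a choice made after seeing the data, 4 of the 45 genes were called (8.89%), against 0.517% of all. The list was written from general knowledge of Atf4 targets with earlier results of these data known, so its direction is no independent evidence. The list was also read from 1 probe set per gene, that with the highest mean over all 45 arrays. Here 2 of 45 rose and 0 fell, against 0.216% and 0.024% of the 8317 genes read this way. These 2 were Trib3 and Cth, which mark the comparison. Both are also among the 6 and the 4, so these shares are no independent evidence either. On this reading 38 of 45 changes were above 0. The median change was 0.58, against 0.06 over all genes read this way. The median was 0.48 after quantile normalization and 0.37 after median centring, where all genes had medians of -0.05 and -0.15. Without first-experiment replicate 2, 6 of 45 rose, 0 fell and the median was 0.45. Of all 8357 genes read this way in that fit, 115 rose and 20 fell, and the median was 0.04. In 27 of 45 genes the 2F arrays all lay above the first-experiment arrays, and in 0 they all lay below, against 22.6% and 18.2% of all genes read this way.

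The promoters of these genes are shown because Atf4 and C/EBP proteins bind a composite site there. The core searched was TGATGNAA, in which N is any base, on both strands and with 0 mismatches, in RefSeq windows of build GRCm38.p6 from 250 bases before to 50 after each start. It occurred in 3.97% of 32851 such windows and in 16 of 48 windows of the stress genes, which stood for 40 genes of the list. The list was written as Atf4 targets, so its higher share follows from that choice and is no result of these arrays. Of the 6 genes named above, 5 had a window, and Trib3, Slc1a4 and 1 of the 2 windows of Vldlr held the core. They lie at chr2:152344011-152344310 (Trib3, minus strand), chr11:20332664-20332963 (Slc1a4, minus strand) and chr19:27216770-27217069 (Vldlr, plus strand), are written 5′ to 3′ on the gene's strand, and have the match in capitals, which in each reads on the opposite strand.
Trib3: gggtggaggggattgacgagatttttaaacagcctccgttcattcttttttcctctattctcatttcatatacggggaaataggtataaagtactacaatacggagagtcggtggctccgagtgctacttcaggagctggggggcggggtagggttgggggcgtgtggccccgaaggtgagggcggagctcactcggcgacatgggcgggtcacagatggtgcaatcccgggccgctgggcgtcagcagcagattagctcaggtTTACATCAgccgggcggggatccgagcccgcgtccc
Slc1a4: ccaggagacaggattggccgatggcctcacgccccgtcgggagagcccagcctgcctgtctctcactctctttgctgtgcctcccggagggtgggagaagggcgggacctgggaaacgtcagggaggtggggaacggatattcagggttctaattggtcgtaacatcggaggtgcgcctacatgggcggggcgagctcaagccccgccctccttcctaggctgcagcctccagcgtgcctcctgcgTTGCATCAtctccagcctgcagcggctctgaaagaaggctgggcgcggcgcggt
Vldlr: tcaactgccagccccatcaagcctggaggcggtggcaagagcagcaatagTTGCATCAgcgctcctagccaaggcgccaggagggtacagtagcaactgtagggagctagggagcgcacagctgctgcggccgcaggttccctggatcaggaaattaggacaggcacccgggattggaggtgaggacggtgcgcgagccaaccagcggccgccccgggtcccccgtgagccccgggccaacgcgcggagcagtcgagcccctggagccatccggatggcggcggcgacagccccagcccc
The match began 14 bases after the start of Trib3, 4 bases before that of Slc1a4 and 200 bases before that of Vldlr. A match is a description of the letters and shows no binding.

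Trib3 had log2 levels of 7.96, 7.89 and 7.83 on the 2F arrays, against 5.88, 4.80 and 5.19 on the first-experiment arrays. The 2F arrays were close together and all lay above the first-experiment arrays, and the rise was 2.60 ± 0.28 (log2 ± SE, n = 3 each, limma adjusted p = 0.031), or 6.07-fold. It was 2.36 without first-experiment replicate 2. The reading depended on the probe set: the other probe set of Trib3, of the type whose probes can match other sequences, had 7.47, 7.37 and 7.28 on the 2F arrays, against 6.19, 7.64 and 7.10 on the first-experiment arrays. There replicate 2 was the highest of the 6 arrays, and the difference did not pass (0.40 ± 0.36, limma adjusted p = 0.457).

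Cth, with 1 probe set, had log2 levels of 8.95, 8.92 and 8.84 on the 2F arrays, against 7.02, 6.90 and 7.17 on the first-experiment arrays. The first-experiment arrays lay close together, replicate 2 included, and all below 2F, and Cth rose by 1.87 ± 0.15 (limma adjusted p = 0.025), or 3.66-fold. Across the alternatives tried, the change ran from 2.01 to 2.90 for the called Trib3 probe set and from 1.66 to 1.94 for Cth, with limma adjusted p from 5.14e-06 to 0.284 for both. Neither was called without first-experiment replicate 3 or without any 1 of the 2F arrays.

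Gpt2 encodes the mitochondrial alanine transaminase. Of its 4 tested probe sets 3 rose, by 2.94 ± 0.27, 2.71 ± 0.39 and 2.25 ± 0.27 (limma adjusted p = 0.025, 0.049 and 0.035). The first of these averaged below an intensity of 32 in the first experiment. The brightest of these 3 had 8.98, 8.94 and 8.84 on the 2F arrays, against 7.10, 5.52 and 6.01 on the first-experiment arrays. The probe set of Gpt2 that did not pass was brighter over the 6 arrays. It had 8.68, 8.53 and 8.58 on the 2F arrays, against 7.55, 8.69 and 7.80 on the first-experiment arrays, and only replicate 2 overlapped with 2F. Slc6a9, a glycine transporter, rose on 1 probe set with 6.38, 6.40 and 5.93 on the 2F arrays, against 4.33, 3.70 and 3.46 on the first-experiment arrays (2.41 ± 0.27, limma adjusted p = 0.032). The size of differences from such dim levels is uncertain. Its brighter probe set differed by 1.20 ± 0.24 without passing (limma adjusted p = 0.081).

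Vldlr, the very-low-density lipoprotein receptor and an Atf4 target, rose on 1 probe set, with 6.27, 6.56 and 6.29 on the 2F arrays, against 5.00, 4.52 and 4.66 on the first-experiment arrays (1.65 ± 0.19, limma adjusted p = 0.032). Its brighter probe set did not pass (0.51 ± 0.25, limma adjusted p = 0.220). Slc1a4, a transporter of alanine, serine and cysteine, rose on 1 probe set, with 7.59, 7.68 and 7.59 on the 2F arrays, against 6.28, 5.85 and 6.00 on the first-experiment arrays (1.58 ± 0.17, limma adjusted p = 0.030). The brightest probe set of Slc1a4 read 8.16, 8.21 and 8.14 on the 2F arrays, against 7.53, 9.15 and 8.35 on the first-experiment arrays, and its difference of -0.17 ± 0.39 changed sign to 0.23 without replicate 2. Trib3, Gpt2 and Slc1a4 thus each had a probe set without a call on which first-experiment replicate 2 read highest of its group.

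The rest of the list did not pass with all 6 arrays. The factors at the head of the pathway were Atf4 itself, whose brighter probe set stood at 11.65, 11.58 and 11.56 on the 2F arrays, against 11.55, 9.95 and 11.20 on the first-experiment arrays (0.70 ± 0.40, limma adjusted p = 0.276), and its relative Atf5, at 10.02, 9.95 and 9.99 on the 2F arrays, against 9.17, 6.88 and 7.91 on the first-experiment arrays (2.00 ± 0.54, limma adjusted p = 0.114). Cebpb, a C/EBP partner of Atf4, had the largest difference among the probe sets that represent the 45 genes, with 12.39, 12.36 and 12.49 on the 2F arrays, against 11.34, 8.03 and 9.69 on the first-experiment arrays (2.72 ± 0.76, limma adjusted p = 0.122). On these probe sets of Atf4, Atf5 and Cebpb, replicate 2 was the lowest array, and without it the differences were 0.22, 1.45 and 1.89. The dimmer probe set of Atf4 leaned the other way without passing, at 10.38, 10.33 and 10.58 on the 2F arrays, against 10.17, 11.66 and 11.15 on the first-experiment arrays (-0.56 ± 0.37, limma adjusted p = 0.324). There replicate 2 was the highest array, and the difference was -0.23 without it. Among the enzymes, Chac1, which degrades glutathione, differed by 0.93 ± 0.18, the folate enzyme Mthfd2 by 1.49 ± 0.33 and the serine phosphatase Psph by 1.41 ± 0.32 (limma adjusted p = 0.078, 0.096 and 0.098). On these probe sets the 3 genes rose without replicate 2, by 1.08, 1.14 and 1.08. The dimmer probe set of Mthfd2 had 9.62, 9.55 and 9.70 on the 2F arrays, against 9.36, 10.04 and 9.43 on the first-experiment arrays (0.02 ± 0.22, limma adjusted p = 0.964), and was not called without replicate 2 (0.23). Asns, the asparagine synthetase that is a standard reporter of the pathway, had 11.66, 11.66 and 11.69 on the 2F arrays, against 11.29, 12.28 and 11.70 on the first-experiment arrays, on its brighter probe set, and did not pass (-0.09 ± 0.26, limma adjusted p = 0.827). That probe set, like the brighter one of Vldlr, is of the type whose probes can match other sequences. The other probe set of Asns read 11.63, 11.63 and 11.66 on the 2F arrays, against 11.41, 10.93 and 10.99 on the first-experiment arrays, without overlap, and did not pass either (0.53 ± 0.18, limma adjusted p = 0.147).

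**Figure D3:**
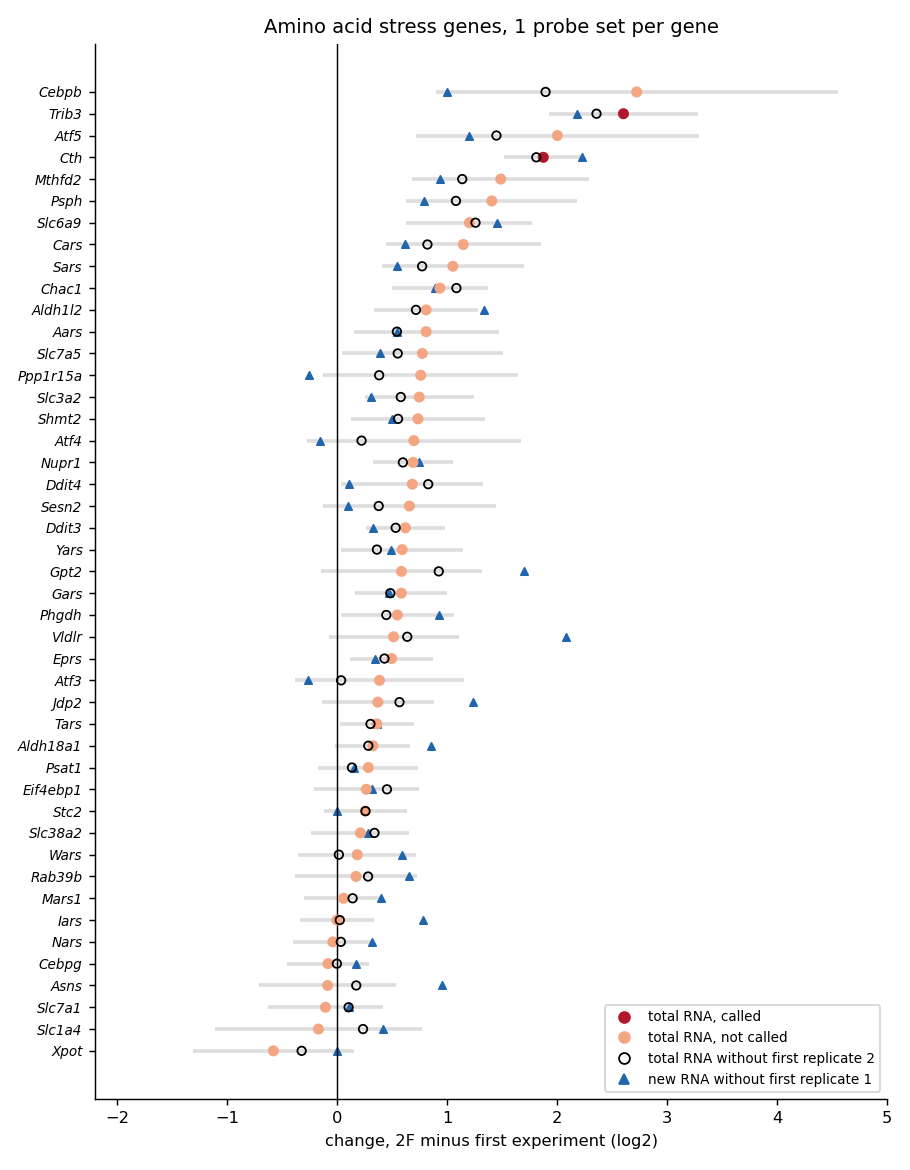
Change of 45 amino acid stress genes between 2F and the first experiment (log2, horizontal axis), 1 probe set per gene, in order of the change in total RNA. Filled circles are total RNA with all 6 arrays and grey bars their 95% intervals, dark red where called, open circles total RNA without first-experiment replicate 2, and triangles new RNA without first-experiment replicate 1. Of the filled circles, 38 lie above 0, and Trib3 and Cth are called.

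Newly transcribed RNA of the same experiments gave a reading on other arrays. Over all 6 new RNA arrays, limma called 0 higher and 2 lower of 15865 probe sets (0% and 0.0126%), while 635 and 196 had an unadjusted p below 0.05 with a 2-fold change. First-experiment new RNA replicate 1 stood apart, with a Gapdh 3' minus 5' signal of 3.07, against -0.27 and -0.29 in its group, and without it 736 were higher and 218 lower (4.62% and 1.37%). In that fit Trib3 rose by 2.18 ± 0.25, Cth by 2.22 ± 0.17, the brightest called Gpt2 probe set by 2.15 ± 0.24 and the called Vldlr probe set by 1.80 (limma adjusted p = 0.00216, 0.000401, 0.00205 and 0.00151). The new RNA level of Cth was 8.21, 8.08 and 8.02 in 2F, against 6.48, 5.72 and 6.04 in the first experiment, so replicate 1 did not overlap with 2F either. Read by 1 probe set per gene, 8 of 45 amino acid stress genes rose in new RNA without replicate 1, Trib3 and Cth among them, and 0 fell. The median was 0.49, against 0.14 over all genes. Of all 7928 genes in that fit, 373 rose and 55 fell. With all 6 new RNA arrays, 0 of 45 rose and the median was 0.38, against 0.12 over all genes.

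The called probe sets as a whole also leaned the same way in new RNA. Of the 86 that rose, 77 had a new RNA change above 0, and 33 were at least 2-fold higher, against 64.0% and 6.85% of all tested probe sets. Of the 17 that fell, 13 had a new RNA change below 0 and 5 were at least 2-fold lower, against 0.861% of all tested. Without new RNA replicate 1, 15 of the 86 and 5 of the 17 were called the same way.

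Trib3 and Cth were also higher in untreated cells and at 30 min than in total RNA of the first experiment. Trib3 stood at 8.59, 8.93 and 9.18 in untreated cells and at a lowest, median and highest of 8.24, 8.51 and 9.33 on the 9 arrays at 30 min, all above both 60 min experiments. Cth stood at 9.30, 9.62 and 9.78 in untreated cells and at 8.78, 9.06 and 9.38 at 30 min. The pre-existing RNA of the first experiment read 8.09, 7.74 and 7.74 for Trib3 and 9.19, 8.93 and 9.07 for Cth, nearer to the 2F total RNA than to the total RNA of the first experiment. Pre-existing replicate 2 stood apart in its 3' minus 5' signals. They were 1.54 for Actb, against 0.68 and 0.72 in its group, and 0.34 for Gapdh, against -0.20 and -0.19. No comparison here leaves that array out. In new RNA of the first experiment Trib3 read 8.07, 7.27 and 6.72. The total RNA there, at 5.88, 4.80 and 5.19, thus lay below both of its fractions for Trib3. The cause was not tested, and the size of the Trib3 difference is uncertain. For Cth, at 6.48, 5.72 and 6.04, new RNA lay below total RNA. The brightest called Gpt2 probe set stood at 9.17, 8.90 and 9.13 in pre-existing RNA and 9.05, 9.36 and 9.60 in untreated cells. Such nearness was common: the untreated mean was nearer to 2F than to the first experiment for 62 of the 86 probe sets that rose and for 69.2% of all tested, and the pre-existing mean for 60 of 86 and 72.5%. The 30 min mean was nearer to 2F for 40 of the 86, a smaller share than the 70.0% of all tested.

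**Figure D4:**
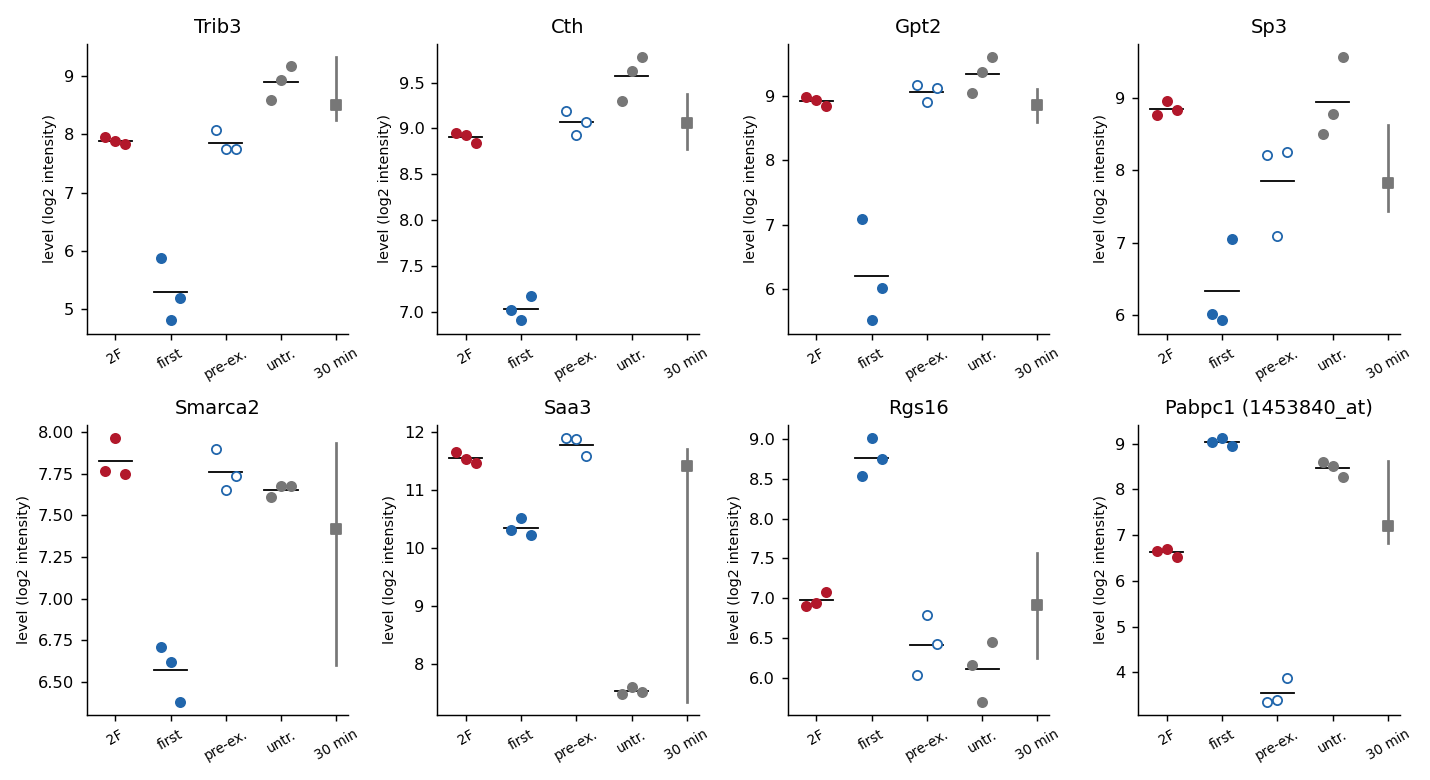
Level (log2 intensity, vertical axes) of 8 called probe sets in total RNA of 2F and of the first experiment, in pre-existing RNA of the first experiment (open circles), in untreated cells and at 30 min. Points are single arrays with the group mean as a line, and at 30 min the square is the median and the bar the range of 9 arrays. Trib3, Cth and Gpt2 are low on the first-experiment total RNA arrays alone, while Pabpc1 is lowest in pre-existing RNA.

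The other increases large and bright enough to be named by rule were Sp3, Atp1b1, P2rx3, Smarca2 and Saa3. Sp3, a zinc-finger factor that binds GC boxes, had 8.77, 8.96 and 8.83 on the 2F arrays, against 6.01, 5.93 and 7.05 on the first-experiment arrays, and rose by 2.52 ± 0.32 (limma adjusted p = 0.036). The groups were well separated although replicate 3 read higher than the rest of the first experiment. Smarca2, an ATPase of chromatin remodelling complexes, had 7.76, 7.96 and 7.75 on the 2F arrays, against 6.71, 6.62 and 6.38 on the first-experiment arrays (1.26 ± 0.16, limma adjusted p = 0.038). P2rx3, an ATP-gated ion channel, rose on both of its probe sets, by 1.29 ± 0.18 and 2.03 ± 0.22 (limma adjusted p = 0.045 and 0.032). Atp1b1, the beta subunit of the sodium pump, rose on 2 of 4 probe sets, by 1.33 ± 0.16 and 1.39 ± 0.19, while the other 2 differed by 0.06 and 0.05. In new RNA without replicate 1, Smarca2 rose by 2.10, P2rx3 by 2.81 and Atp1b1 by 1.14 on the probe sets named. The new RNA of Sp3 and Saa3 is not given here, and 15 of all 86 increases were called in that fit.

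Saa3, an acute-phase protein that fibroblasts secrete on inflammatory signals, had 11.66, 11.53 and 11.47 on the 2F arrays, against 10.31, 10.52 and 10.22 on the first-experiment arrays (1.20 ± 0.16, limma adjusted p = 0.038). It was low in untreated cells, at 7.49, 7.62 and 7.51, and high in pre-existing RNA of the first experiment, at 11.89, 11.87 and 11.58. The acute-phase protein Hp, the haemoglobin scavenger haptoglobin, was picked after its values were seen and had 7.96, 7.70 and 7.70 on the 2F arrays, against 5.91, 5.71 and 6.38 on the first-experiment arrays (1.78 ± 0.22, limma adjusted p = 0.035), and 5.59 ± 0.35 in untreated cells (SD, n = 3). Also picked after their values were seen, the fatty acid desaturase Scd2 rose by 3.03 ± 0.23 and the cholesterol exporter Abca1 by 2.97 ± 0.27 (limma adjusted p = 0.025 each). Grb10, Gja1 and Pck2 were likewise chosen after seeing their values. The growth factor adaptor Grb10 had 8.32, 8.46 and 8.26 on the 2F arrays, against 5.00, 2.65 and 3.31 on the first-experiment arrays (4.69 ± 0.57, limma adjusted p = 0.035). Gja1, the gap junction protein connexin, had 6.95, 7.22 and 7.19 on the 2F arrays, against 4.56, 3.28 and 3.42 on the first-experiment arrays (3.36 ± 0.35, limma adjusted p = 0.030). Pck2, the mitochondrial phosphoenolpyruvate carboxykinase, had 7.69, 7.43 and 7.48 on the 2F arrays, against 6.04, 6.33 and 6.32 on the first-experiment arrays (1.30 ± 0.16, limma adjusted p = 0.036). In all 3 the arrays of the 2 experiments did not overlap, and the first-experiment means of Grb10, Gja1 and Abca1 lay below an intensity of 32, so the size of these increases is uncertain. Hp, Scd2, Abca1, Grb10, Gja1 and Pck2 are each given by 1 called probe set, and other probe sets of a gene may read otherwise. The brightest probe set of Scd2 did not pass. A brighter one of Pck2 rose by 1.52 ± 0.32 without first-experiment replicate 2 (limma adjusted p = 0.045).

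Rgs16 and Fen1 were the decreases named by rule. Rgs16, a GTPase activator that shortens G-protein signals, had 6.90, 6.94 and 7.08 on the 2F arrays, against 8.54, 9.01 and 8.75 on the first-experiment arrays, and fell by 1.79 ± 0.18 (limma adjusted p = 0.027). A second probe set fell by 1.54 ± 0.22 and another, dim one did not pass (-0.73 ± 1.17, limma adjusted p = 0.672). In untreated cells Rgs16 stood at 6.17, 5.70 and 6.45 and in first-experiment pre-existing RNA at 6.03, 6.79 and 6.42, so that its high first-experiment total RNA had no counterpart there. Its new RNA was 8.78, 9.00 and 8.74 in 2F, against 9.78, 10.97 and 10.37 in the first experiment, and without replicate 1 it fell by 1.83 ± 0.20 (limma adjusted p = 0.0021). Fen1, the endonuclease that trims Okazaki fragments, had 9.44, 9.36 and 9.45 on the 2F arrays, against 10.36, 10.69 and 10.58 on the first-experiment arrays (-1.12 ± 0.15, limma adjusted p = 0.045). That probe set is of the type whose probes can match other sequences. The other probe set of Fen1 differed the other way without passing (0.29 ± 0.20, limma adjusted p = 0.338).

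The probe sets that fell shared a feature on other arrays of the first experiment. By their titles, those arrays come from the same experiment as the total RNA that entered the calls. The series holds no pre-existing RNA of 2F, so the feature is no independent evidence. In the first experiment, 16 of the 17 read at least 4-fold lower in pre-existing RNA than in newly transcribed RNA, against 1 of the 86 that rose and 1867 of all 15568 tested. The median of pre-existing minus new RNA was -5.21 for the 17, 1.59 for the 86 and 0.38 for all tested (log2), and -5.31, 1.38 and 0.33 without new RNA replicate 1. Of the 17, 6 had no single gene symbol. A probe set of Pabpc1, the poly(A)-binding protein, had the lowest adjusted p of all calls and was chosen after its values were seen. It is not the gene's brightest, which was not called lower, so the fall is that of 1 probe set. The called one read 6.66, 6.71 and 6.52 on the 2F arrays, against 9.03, 9.12 and 8.96 on the first-experiment arrays, and fell by 2.41 ± 0.14 (limma adjusted p = 0.021). It read 3.36, 3.40 and 3.89 in first-experiment pre-existing RNA and 8.60, 8.52 and 8.28 in untreated cells. In new RNA it read 9.04, 9.17 and 9.22 in 2F, against 11.42, 12.06 and 12.29 in the first experiment.

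**Figure D5:**
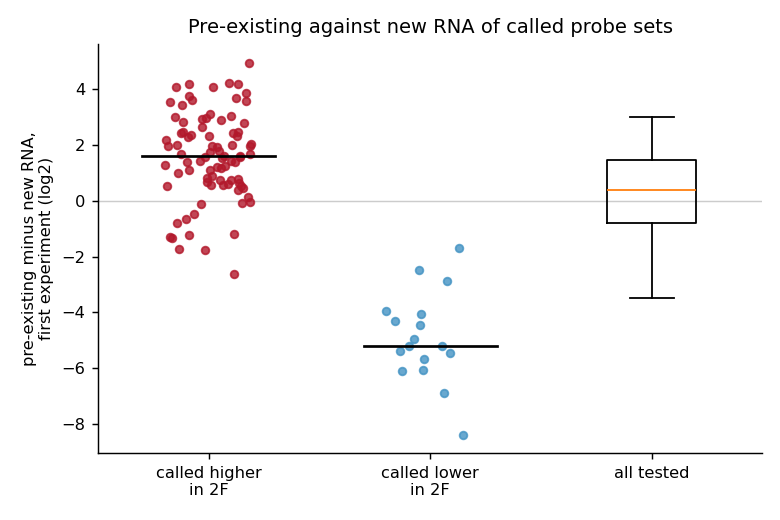
Pre-existing minus new RNA in the first experiment (log2, vertical axis; means of 3 arrays each) for the 86 probe sets called higher and the 17 called lower in 2F total RNA, and for all 15568 tested. Points are probe sets with the median as a line, and the box gives the median, quartiles and the span of the middle 90% of all tested. Medians are 1.59, -5.21 and 0.38.

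In other stress lists the calls were few, as they were among all genes, so a count of 0 is near the background. Of 23 genes of the unfolded protein response, 0 passed on their brightest probe set and the median was 0.18, with -0.03 after median centring. Pdia4, a folding enzyme, had 8.22, 8.46 and 8.14 on the 2F arrays, against 6.08, 7.78 and 5.95 on the first-experiment arrays (1.67 ± 0.49, limma adjusted p = 0.128). Here replicate 2 was the first-experiment array nearest 2F, and without it Pdia4 rose by 2.26. Herpud1, which serves degradation at the endoplasmic reticulum, differed by 1.11 ± 0.21 (limma adjusted p = 0.075), and the chaperone Hyou1 rose on 1 probe set, with 6.72, 6.87 and 6.59 on the 2F arrays, against 4.94, 5.14 and 5.24 on the first-experiment arrays (1.62 ± 0.16, limma adjusted p = 0.030), the list's 1 gene with a call on any probe set. Heat shock genes had 0 of 13 calls and a median of -0.10, with the small chaperone Cryab at 9.58, 9.55 and 9.73 on the 2F arrays, against 10.18, 11.07 and 10.89 on the first-experiment arrays (-1.09 ± 0.25, limma adjusted p = 0.099). The other Cryab probe set differed the other way (0.56 ± 0.53, limma adjusted p = 0.475). Oxidative stress genes (17), hypoxia genes (14) and p53 targets (13) had 0 calls on these probe sets, with medians of 0.23, 0.20 and 0.41, or 0.02, -0.01 and 0.20 after median centring and 0.02, 0.17 and 0.18 without replicate 2. By any probe set, 1 oxidative stress gene rose, Txnrd1, a thioredoxin reductase, with 7.36, 7.33 and 7.34 on the 2F arrays, against 5.31, 3.95 and 4.53 on the first-experiment arrays (2.75 ± 0.34, limma adjusted p = 0.035). That probe set averaged below an intensity of 32 in the first experiment, and the brightest of Txnrd1 did not pass (0.64 ± 0.29, limma adjusted p = 0.207).

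Immediate-early genes, which answer growth factors and stress within minutes, had 0 of 37 calls and a median of 0.33, against 0.18 without first-experiment replicate 2, where 1 rose. Junb, an AP-1 subunit, had 9.74, 9.54 and 9.83 on the 2F arrays, against 9.25, 6.06 and 7.63 on the first-experiment arrays, and the antiproliferative factor Btg2 had 10.02, 9.97 and 10.42 on the 2F arrays, against 9.78, 3.78 and 8.70 on the first-experiment arrays (limma adjusted p = 0.159 and 0.252). The differences were 2.06 and 2.72 with all arrays and 1.26 and 0.90 without replicate 2. On both probe sets replicate 2 was the lowest array, while the other probe set of Btg2 differed by 0.22 ± 0.25 (limma adjusted p = 0.543). Oxidative phosphorylation (60 genes) had a median of 0.17 and ribosomal proteins (40) one of 0.18, with 0 calls each, against -0.04 and -0.03 after median centring and 0.01 and 0.0046 without replicate 2. Fau, a ribosomal protein precursor, had 13.50, 13.46 and 13.50 on the 2F arrays, against 13.36, 10.58 and 12.64 on the first-experiment arrays. Psmb2, of 34 proteasome genes with 0 calls and a median of 0.07, had 9.64, 9.75 and 9.73 on the 2F arrays, against 8.39, 4.87 and 8.30 on the first-experiment arrays, and it rose without replicate 2, by 1.36.

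Cell cycle genes leaned the other way without calls. Mitosis genes had a median of -0.31 (8 of 29 changes above 0) and G1/S and replication genes one of -0.19 (11 of 29), and the medians stayed below 0 after quantile normalization (-0.37 and -0.27), after median centring (-0.52 and -0.40) and without first-experiment replicate 2 (-0.26 and -0.22). Cdca8, a subunit of the chromosomal passenger complex, had 9.96, 10.10 and 10.09 on the 2F arrays, against 10.40, 11.66 and 11.17 on the first-experiment arrays (-1.03 ± 0.32, limma adjusted p = 0.137), while its other probe sets differed by -0.21 and -0.22 without passing. The mitosis genes Ube2c and Plk1 differed upwards without passing, by 0.92 ± 0.47 and 0.76 ± 0.33 (limma adjusted p = 0.237 and 0.192). Hmmr differed by -0.76 ± 0.28 on 1 probe set (limma adjusted p = 0.163) and by -0.07 to 0.31 on its others. Ccne2, a G1/S cyclin, had 7.21, 7.22 and 7.22 on the 2F arrays, against 7.39, 8.46 and 8.70 on the first-experiment arrays (-0.96 ± 0.34, limma adjusted p = 0.159). On the probe sets of Cdca8 and Ccne2 given by array, the groups did not overlap. With 2F lower this held for 15 of 29 mitosis and 9 of 29 G1/S genes, against 18.2% of all genes. Sterol synthesis (18 genes) had a median of 0.38, fatty acid synthesis (13) one of 0.33, and matrix, cytoskeleton and adhesion (44) one of 0.24, each with 0 calls on these probe sets. Thbs1, an adhesive glycoprotein induced by serum, had 12.98, 12.91 and 12.85 on the 2F arrays, against 11.95, 10.22 and 11.32 on the first-experiment arrays (1.75 ± 0.42, limma adjusted p = 0.105), and rose by 1.28 without replicate 2. Feedback regulators (21), cytokines and growth factors (17), glucose-responsive and FoxO targets (11), glycolysis and citrate cycle (29), interferon response (6), splicing factors (27), nuclear RNAs and hosts of small nucleolar RNAs (13) and histones (4) also had 0 calls on these probe sets, with medians between -0.25 and 0.24, several of which changed sign after median centring. By any probe set, 1 gene rose in each of 4 of these lists, and these genes, like Hyou1 and Txnrd1, are named after their values were seen. They were Scd2, described above, among the fatty acid genes, the integrin subunit Itgav (1.99 ± 0.22) among the adhesion genes, the sestrin Sesn3 (1.52 ± 0.20) among the FoxO targets and the splicing factor Srsf1 (1.80 ± 0.22) among the splicing factors (limma adjusted p = 0.025, 0.031, 0.043 and 0.035).

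A test of whether the change between experiments differed between new and total RNA called 4 of 15879 probe sets (limma interaction term, 0.0252%). Trib3, Cth and Rgs16 were not among them, with differences of -0.78, 0.15 and 0.26 (limma adjusted p = 0.470, 0.799 and 0.741). Without first-experiment total RNA replicate 1 the count was 305, without first-experiment new RNA replicate 1 it was 171, and without new RNA replicate 3 it was 14. It was 0 without total RNA replicate 3, new RNA replicate 2 or any 1 of the 2F arrays, and 2 without total RNA replicate 2. With total RNA replicate 2 and new RNA replicate 1 both left out, a choice made after seeing the data, it was 648. With all 12 arrays, 1384 probe sets had an unadjusted p below 0.05 with a 2-fold difference.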

How the data were processed

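The authors deposited GCRMA intensities on a linear scale, per the submitters' processing notes (version not given in the sources used here), from RNA extracted with Trizol and labelled with the Affymetrix one-cycle protocol, per the labels. Their log2 was taken here. Of 31451 probe sets, 61 controls were kept out of the tests, and 25031 carried a single symbol in GEO's annotation of the array, naming 13232 genes. The deposited intensity carries no read depth, and the number of arrays limits the precision. Probe sets averaging at least 5 on the log2 scale, an intensity of 32, were tested with limma 3.58.1 in R 4.3.3 (lmFit, eBayes, group as the only factor, the arrays compared), with Benjamini-Hochberg adjustment over all tested. The test was tried on simulated data in which both groups had the same spread. The spread of the real groups differed, with a median SD of 0.0758 in 2F and 0.398 in the first experiment. The trial therefore does not show how the test behaves on these arrays. Single values had exact permutation tests. Named by rule were up to 15 called increases and decreases that averaged at least 7, had a single symbol, did not overlap between groups and came from the gene's brightest probe set, Trib3 and Cth, called amino acid stress genes, up to 4 genes per other list and all probe sets where a comparison had 5 or fewer calls. Members and gene lists were chosen with earlier results of these data known. The alternatives were other arrays in the fit, scalings, filters, variance models, array weights, a replicate block and arrays left out.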

Additional observations from a re-analysis of the deposited data

Results flagged for a closer look

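In 4 probe sets the change between experiments differed between new and total RNA (limma interaction term, adjusted p 0.038 to 0.041). Sfrp1, a secreted Wnt antagonist, had an interaction of 2.33 ± 0.30, with total RNA at 5.61, 5.70 and 5.61 in 2F, against 6.54, 7.02 and 6.29 in the first experiment, and new RNA at 5.66, 5.51 and 5.42 in 2F, against 4.34, 4.08 and 4.11 in the first experiment. A probe set without a gene symbol had an interaction of 2.07 ± 0.27, with new RNA at 6.77, 6.88 and 6.68 in 2F, against 5.65, 6.09 and 6.13 in the first experiment. Steap2, a metalloreductase, had one of 1.78 ± 0.24, with new RNA at 7.84, 7.84 and 7.75 in 2F, against 6.07, 6.08 and 5.99 in the first experiment, and total RNA that overlapped. Anxa1, a phospholipid-binding protein, had one of -2.50 ± 0.33, with new RNA at 4.59, 4.74 and 4.98 in 2F, against 7.76, 7.68 and 7.79 in the first experiment, and total RNA below an intensity of 32 on all 6 arrays. Anxa1 and another probe set without a symbol were also the 2 called lower in new RNA, by 2.97 and 3.51 on the log2 scale. For H2az2, a histone variant, 1 of the 9 arrays at 30 min stood apart, at 9.92 against a median of 10.25, with a gap of 0.546 of the group's range. Chance alone gives such a gap in about 1 in 20 groups of independent samples, and the 30 min arrays, whose correlations ran from 0.919 to 0.996, may not be independent. They fell into 3 sets, replicates 1, 4 and 7, replicates 2, 5 and 8, and replicates 3, 6 and 9. Correlations were 0.988 to 0.996 within these sets and 0.919 to 0.970 between them.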

How the results depend on the processing

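In total RNA, where 86 probe sets were called higher and 17 lower, the counts were 1340 and 273 with all 24 total RNA arrays in the fit, 81 and 35 after quantile normalization, 63 and 28 after median centring, 4 and 3 with a mean log2 of 7 or more, 314 and 58 with no filter and 53 and 14 with an intensity trend and robust variances. With array weights, which in effect left out first-experiment replicate 3, limma called 0 and 0 (989 and 191 at an unadjusted p below 0.05 with a 2-fold change). Leaving out 1 array gave 0 to 1946 higher and 0 to 819 lower, and leaving out first-experiment replicates 2 and 3 together, chosen after seeing the data, gave 471 and 142, with the lone array assumed to vary like the 2F arrays. With the replicate number as a block there were 0 and 0 (1441 and 337 unadjusted). Same-numbered arrays had correlations of their deviations of 0.081, 0.030 and 0.0090 in total RNA and 0.0086, 0.301 and -0.215 in new RNA, so that the arrays share only a number.

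In new RNA, against 0 higher and 2 lower, there were 0 and 4 after quantile normalization, 0 and 1 with a mean log2 of 7 or more, 0 and 0 with the replicate block (693 and 211 unadjusted), and 0 to 736 and 0 to 218 with 1 array left out. The test between new and total RNA gave 1 call with the replicate block, 1 with a mean log2 of 7 or more, 0 to 305 with 1 array left out and 648 with both named arrays left out. The Gapdh control difference ran from -0.34 to -0.02 with 1 array left out. Of 28 named probe sets called, 28 were called without first-experiment replicate 1 or 2 and 0 with array weights, with the block, without replicate 3 or without any 2F array, and no called one changed sign. The probe sets of Slc1a4 (-0.17) and Asns (-0.09) that were not called changed sign to 0.055 and 0.021 with array weights, to 0.23 and 0.17 without first-experiment replicate 2, and to 0.65 and 0.38 without replicates 2 and 3, and were -0.58 and -0.32 without replicate 1. Of the dimmer probe sets of 4 genes, none called, Atf4 (-0.56) changed sign to 0.26 without replicates 2 and 3. Mthfd2 (0.02) read -0.035 after quantile normalization, -0.20 after median centring and -0.11 to 0.23 with 1 array left out. Cryab (0.56) and Btg2 (0.22) read -0.058 and -0.028 without replicate 2, -0.45 and -0.18 without replicates 2 and 3, and 1.07 and 0.43 without replicate 1. The cause of these changes was not tested. Of 86 increases, 36 averaged below an intensity of 32 in the first experiment, and the size of their differences is uncertain.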
